A study of Mus musculus with 8 samples.

Results

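Lin28a, Lin28b, Igf2bp1, Igf2bp2, Igf2bp3, Hmga1, Hmga2, Mex3a, Mex3b and Trim71 are oncofetal genes: highly active in embryonic tissue, for the most part low in adult tissue and often active again in tumors. These 10 genes, of 43346 gene identifiers counted, are followed here through the development of notochord-derived cells (NDCs) in the mouse. They were chosen by name with the measured stage difference of most of them already known, so their differences between stages are given as a description: the calls of the fit over all genes are counted, but no p-value is given for any of the 10 and nothing is supported with the calls. RNA was sequenced from Shh-cre;ROSA:YFP mice, in which the Cre recombinase, driven by the Shh gene, switches on a yellow fluorescent protein (YFP) in cells that express or once expressed Shh, including the notochord. The first group was made of 4 litters at embryonic day 12.5 (E12.5), when the notochord is an intact rod. The second was made of 4 litters at postnatal day 0 (P0), when its descendants form the nucleus pulposus (NP) of each intervertebral disc. Both stages carried the same alleles, no litter received a treatment, and the animals of a litter were pooled into 1 sample. E12.5 notochords were dissected whole and put straight into lysis reagent, whereas P0 cells were loosened mechanically and sorted for YFP, so that stage and isolation method cannot be told apart.

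Most of these genes belong to a small network that sets developmental timing. LIN28A and LIN28B are RNA-binding proteins that stop precursors of the microRNA let-7 from maturing, while mature let-7 binds the 3' untranslated regions (UTRs) of its target messenger RNAs and lowers them, and Hmga2, Igf2bp1, Trim71 and the Lin28 genes themselves are textbook targets. The IGF2BP proteins bind and stabilise messenger RNAs such as that of Igf2, the HMGA proteins bind AT-rich DNA and bend chromatin, and MEX3A, MEX3B and TRIM71 are RNA-binding ubiquitin ligases.

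The sequences of the let-7 family are shown first because 8 of the 10 genes hold matches to its seed, the stretch of bases 2 to 8 by which a microRNA pairs with its targets (capitals). The 10 mature mouse let-7 sequences taken from RefSeq (GRCm38.p6) were selected by name and by this seed, so their shared seed is not a finding. They differed in the bases after it.
mmu-let-7a-5p: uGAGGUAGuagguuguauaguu
mmu-let-7d-5p: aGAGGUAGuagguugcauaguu
mmu-let-7g-5p: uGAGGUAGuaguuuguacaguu
mmu-let-7i-5p: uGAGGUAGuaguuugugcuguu
mmu-miR-98-5p: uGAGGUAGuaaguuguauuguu
LIN28 binds the motif GGAG in the terminal loop of let-7 precursors. Of the 12 let-7 hairpins in that table, 9 held GGAG at some position, whereas 44.5% of all 1005 hairpins did. The motif was searched on the hairpin strand alone and can also fall outside the loop.

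The reverse complement of the seed, CTACCTC, was searched on the sense strand of the longest annotated 3' UTR of each gene (Gencode M21, GRCm38), and the 8-base form CTACCTCA adds the A that favours binding. Hmga2, Lin28b, Igf2bp1 and Trim71 held 4 matches each, Lin28a held 2, Igf2bp2, Igf2bp3 and Hmga1 held 1 each, and Mex3a and Mex3b held 0. The 8-base form was present in 7 of the 10 genes, with all 4 matches of Trim71 and 3 of the 4 in Igf2bp1 being of that form. Of 21022 mouse 3' UTRs searched the same way, 9.02% held a 7-base match, 3.06% an 8-base match and 0.152% at least 3 matches. UTR length bears on this count, and among UTRs within 20% of the length of that of Hmga2, which spans 3014 bases, 15.5% held a match and 0.0891% as many as Hmga2. Several of the genes are in the group because they are known let-7 targets, so these counts describe them and a match is not shown to be a working site.

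The sites below are the first match after the stop codon in each gene, with the seed match in capitals at the end, and all of Hmga2's, since that gene differed most between stages. All lie within a 3' UTR, and each is read 5' to 3' on the strand of its gene.
Hmga2 site 1, chr10:120364224-120364246, minus strand, 58 bases after the stop codon: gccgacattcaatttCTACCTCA
Hmga2 site 2, chr10:120362987-120363009, minus strand, 1295 bases after it: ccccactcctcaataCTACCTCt
Hmga2 site 3, chr10:120362549-120362571, minus strand, 1733 bases after it: ctgatttgcaaggaaCTACCTCc
Hmga2 site 4, chr10:120361691-120361713, minus strand, 2591 bases after it: aatcaaaacacactaCTACCTCt
Lin28a site 1, chr4:134005189-134005211, minus strand, 909 bases after it: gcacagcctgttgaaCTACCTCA
Lin28b site 1, chr10:45381022-45381044, minus strand, 36 bases after it: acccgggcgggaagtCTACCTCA
Igf2bp1 site 1, chr11:95961778-95961800, minus strand, 1715 bases after it: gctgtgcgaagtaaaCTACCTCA
Igf2bp2 site 1, chr16:22059473-22059495, minus strand, 1313 bases after it: acacacaaataaaagCTACCTCA
Igf2bp3 site 1, chr6:49086787-49086809, minus strand, 548 bases after it: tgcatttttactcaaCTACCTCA
Trim71 site 1, chr9:114512472-114512494, minus strand, 166 bases after it: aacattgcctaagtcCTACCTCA
Hmga1 site 1, chr17:27563277-27563299, plus strand, 801 bases after it: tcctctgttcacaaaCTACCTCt
The matches of Hmga2 and Lin28b were spread along the UTR, with the 8-base form first and close to the stop codon in both. Those of Trim71 fell into 2 pairs, at 166 and 262 bases and at 3591 and 3617 bases. The match of Hmga1 was absent from some of its 17 annotated coding transcripts.

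**Figure D1:**
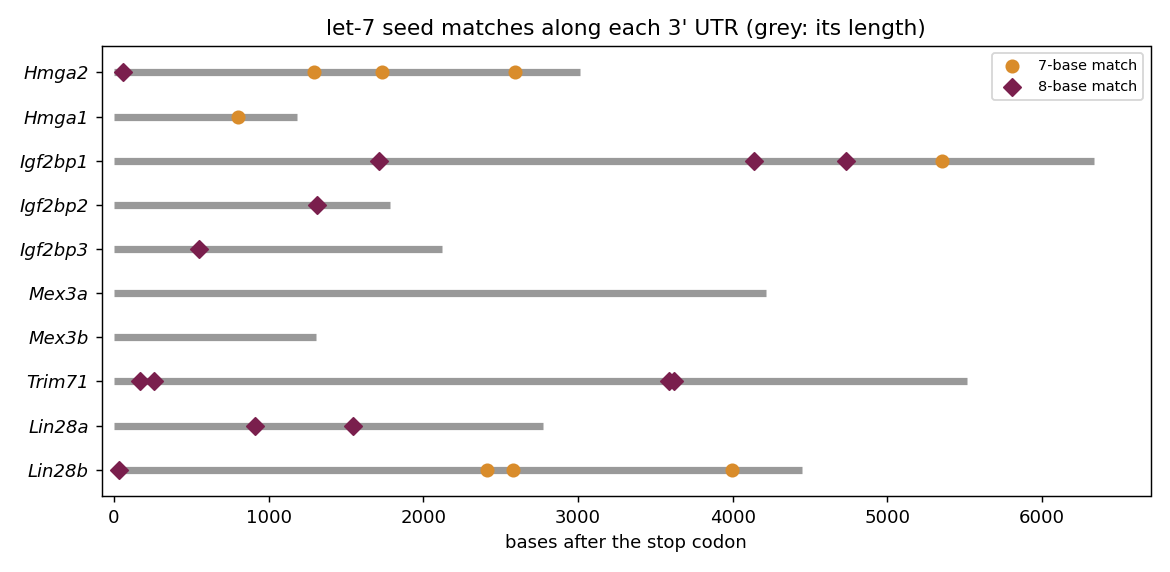
Positions of let-7 seed matches along the longest 3' UTR of each gene, in bases after the stop codon (grey bars, UTR length; circles, 7-base matches; diamonds, 8-base matches). Hmga2, Lin28b, Igf2bp1 and Trim71 hold 4 matches each, and Mex3a and Mex3b hold 0.

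Between 4442775 and 8904050 reads were counted on genes per litter. On these library sizes, before normalization, 3 counts, taken as the floor of detection, equal 0.337 to 0.675 counts per 1000000 reads (CPM). The levels below use normalized library sizes, on which the floor differs somewhat: 3 counts in NPD9.2 equal 0.738 CPM. The floor covers counting error only. All 10 genes passed the filter on low counts, as did 15467 genes in all. The 9 notochord markers (T, Noto, Shh, Foxa1, Foxa2, Krt8, Krt18, Krt19 and Cd24a) summed to 1687 to 4007 CPM at E12.5 and 1969 to 6935 CPM at P0. The paper reported Shh as much lower at P0, Krt19 and Cd24 as higher, and T, Krt8 and Krt18 as stable. The sum therefore hides markers that moved in opposite directions, and it does not measure the share of notochord cells. Markers of other cells were present as well. Leukocyte markers (14 genes) summed to 106 to 237 CPM at E12.5 and, at P0, to 5544 CPM in NPD26, 6273 in NPD27, 6762 in NPD28 and 784 in NPD30. Primitive erythroid globins (3 genes) summed to 8120 to 32810 CPM at E12.5 and at most 7.07 CPM at P0, sclerotome markers (7 genes) to 135 to 205 and 8.0 to 23.2 CPM, and fetal liver markers (5 genes) to 44.9 to 725 and 1.21 to 3.46 CPM. Their part in the stage differences below was not tested. In such pooled RNA, fewer cells of a type and less RNA per cell cannot be told apart.

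Of the 10 genes, 6 were lower at P0 at an adjusted p under 0.05 (Hmga2, Igf2bp1, Igf2bp2, Igf2bp3, Mex3a and Mex3b), 0 were higher and 4 were not called (Hmga1, Lin28a, Lin28b and Trim71). Over all genes tested, 12.0% were called lower and 27.9% in either direction. In the same 6 genes every P0 litter lay below every E12.5 litter, as in 14.4% of all genes tested, and in the other 4 the litters overlapped. The median log2 fold change, P0 over E12.5, was -1.99 over the 10 genes and 0.04 over all genes tested. Since the stage difference was known when the genes were listed, nothing is read from these counts. No value marked a threshold for membership, so there are no genes just inside or just outside one.

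Hmga2 (ENSMUSG00000056758.10, chr10:120361275-120476469, minus strand) was the member with the largest difference. It stood at 290.6, 454.1, 301.4 and 411.9 CPM in the E12.5 litters NDP10.2, NPD3, NPD4 and NPD9.2, and at 14, 6.20, 7.65 and 1.82 CPM in NPD26, NPD27, NPD28 and NPD30 at P0. The lowest E12.5 litter was thus far above the highest P0 litter, and on the log2 scale the SD over the P0 litters, 1.15, was larger than that over the E12.5 litters, 0.322. The mean was 364.5 ± 81.1 CPM (SD, n = 4) at E12.5 and 7.42 ± 5.04 CPM (SD, n = 4) at P0, 49.1-fold lower, with a log2 fold change of -5.62 (SE 0.55). Of the 15467 genes tested, 36 had a log2 fold change below that of Hmga2. HMGA2 is an architectural chromatin protein of undifferentiated mesenchyme and of fetal stem cells.

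Hmga1 (ENSMUSG00000046711.11, chr17:27556497-27563674, plus strand), the other gene of the family, encodes a chromatin protein made in most dividing cells. It measured 36.6, 35.3, 36.5 and 32.5 CPM in the E12.5 litters, in the order given above, and 36.2, 39.5, 47.9 and 7.88 CPM in the P0 litters. The first 3 P0 litters lay within or above the E12.5 range and NPD30 lay far below it. The log2 fold change was -0.10 (SE 0.43), and it was 0.19 without NPD30. Among genes of similar level its SD over the E12.5 litters, 0.080 on the log2 scale, was larger than that of only 1.33%, whereas its SD over the P0 litters, 1.18, was larger than that of 94.5%. A limit applies to Hmga1, since 76.0% of the 100-base windows of its longest-UTR transcript also occurred in transcripts of other genes, above all of its near-identical copy Hmga1b. Hmga1b itself held 47 to 165 reads at E12.5 and 55 to 238 at P0. Reads aligned to several places were left out, so the level of Hmga1 is uncertain and may be too low.

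The IGF2BP proteins are close relatives that bind many of the same messenger RNAs. Igf2bp1 (ENSMUSG00000013415.5, chr11:95957163-96005940, minus strand) was at 195.3, 166.4, 145.7 and 208.3 CPM at E12.5 and at 17.6, 13.99, 22.1 and 22.7 CPM at P0. Igf2bp2 (ENSMUSG00000033581.12, chr16:22059009-22163299, minus strand) was at 221.7, 235.5, 190.6 and 215.4 CPM at E12.5 and at 16.2, 19.9, 10.01 and 21.2 CPM at P0. Every P0 litter lay far below every E12.5 litter in both genes. The log2 fold change was -3.22 (SE 0.25) for Igf2bp1, a 9.35-fold lower mean, and -3.68 (SE 0.28) for Igf2bp2, a 12.8-fold lower mean. Igf2bp2 differs from its relatives in that it is known to persist in many adult tissues.

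Igf2bp3 (ENSMUSG00000029814.8, chr6:49085223-49214957, minus strand) differed less. It measured 61.3, 70.8, 56.5 and 63.9 CPM at E12.5 and 36.01, 39.2, 35.2 and 24.7 CPM at P0, so that the stages did not overlap but lay close. Its mean was 1.87-fold lower at P0 (log2 fold change -0.90, SE 0.22), and against a test for changes beyond 2-fold it was not called. Of its 100-base windows, 33.7% also occurred, on the opposite strand, in transcripts of Malsu1, with which it shares 1529 exonic bases. Whether reads were counted by strand is not given in the sources used here, so its level is uncertain.

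**Figure D2:**
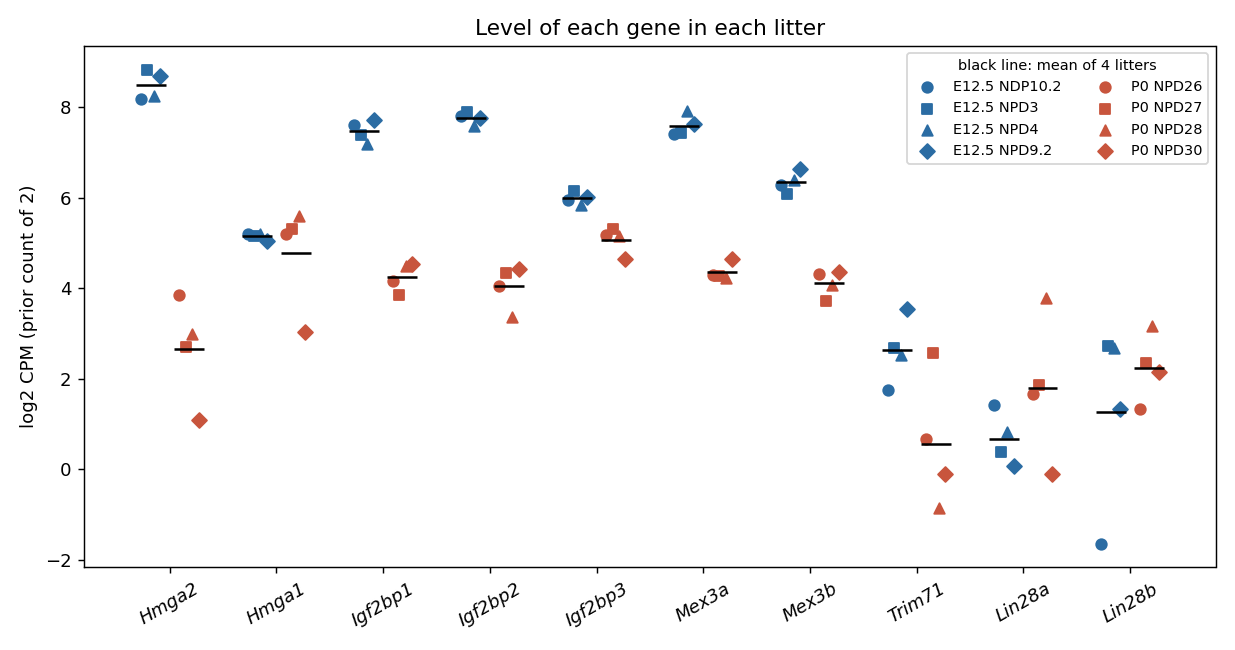
Level of each gene in each of the 4 E12.5 litters (blue) and 4 P0 litters (red), as log2 CPM with a prior count of 2, with a symbol for each litter and a black line at the mean of the stage. In Hmga2, the 3 Igf2bp genes, Mex3a and Mex3b every red symbol lies below every blue one, and in Hmga1, Trim71, Lin28a and Lin28b the symbols overlap.

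The MEX3 proteins carry paired KH domains for RNA binding and a RING domain for ubiquitin transfer, and MEX3A is known from stem and progenitor cells. Mex3a (ENSMUSG00000074480.4, chr3:88532395-88541396, plus strand) was at 169.4, 172.9, 239.6 and 196.0 CPM at E12.5 and at 19.2, 19.03, 18.5 and 24.6 CPM at P0. Mex3b (ENSMUSG00000057706.6, chr7:82867333-82871515, plus strand) was at 77.1, 66.9, 83.2 and 99.6 CPM at E12.5 and at 19.7, 12.8, 16.5 and 20.01 CPM at P0. Neither gene overlapped between stages. The log2 fold change was -3.26 (SE 0.23) for Mex3a, 9.57-fold lower, and -2.24 (SE 0.24) for Mex3b, 4.74-fold lower. The highest E12.5 value of Mex3a was in NPD4, the litter in which 10 neural tube markers summed to 1751 CPM against 181 to 316 CPM in the other E12.5 litters. The same markers summed to 309 to 817 CPM in the P0 litters. The part of neural tissue in the Mex3a values was not tested. These are also the 2 members whose 3' UTRs held no let-7 seed match, so the genes lower at P0 include genes with and without such a match.

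Their relatives were read for comparison. Mex3d was lower at P0, at 25.8 to 46.1 CPM against 11.8 to 22.0 CPM, with a log2 fold change of -1.0 (SE 0.28, edgeR adjusted p = 0.0201). Mex3c, at 33.3 to 73.7 against 37.2 to 50.3 CPM, had a log2 fold change of -0.35 (SE 0.29, edgeR adjusted p = 0.416). Whether these differ from the changes of Mex3a and Mex3b was not tested.

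Trim71 (ENSMUSG00000079259.2, chr9:114507133-114564369, minus strand), the mouse homologue of the worm timing gene lin-41, was rare. It held 13, 31, 45 and 46 reads in the E12.5 litters (3.07, 6.05, 5.44 and 11.3 CPM) and 8, 39, 2 and 4 reads in the P0 litters (1.26, 5.62, 0.235 and 0.606 CPM). NPD27 overlapped the E12.5 litters and the other P0 litters lay below them, that of NPD28 below the floor of 3 counts. The log2 fold change was -1.74 (SE 0.83), and without NPD27 it was -3.19.

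Lin28a (ENSMUSG00000050966.5, chr4:134003330-134018841, minus strand) and Lin28b (ENSMUSG00000063804.7, chr10:45376620-45486395, minus strand), the genes at the head of the network, were low and uneven between litters. Lin28a held 10, 5, 12 and 3 reads at E12.5 (2.36, 0.976, 1.45 and 0.738 CPM) and 18, 23, 114 and 4 reads at P0 (2.83, 3.32, 13.4 and 0.606 CPM). A single P0 litter, NPD28, thus held most of the P0 reads, while NPD30 and the E12.5 litter NPD9.2 held the fewest. The log2 fold change was 1.87 (SE 0.83), it was 0.70 without NPD28, and Lin28a was called higher at P0 only in the fit without NPD30, at 2.19. Lin28b held 0, 32, 50 and 9 reads at E12.5 (0, 6.24, 6.05 and 2.21 CPM) and 14, 33, 73 and 27 reads at P0 (2.20, 4.76, 8.59 and 4.09 CPM). Its 0 reads in NDP10.2 lie below the floor of 3 counts, which is 0.662 CPM in that litter on the library size before normalization. Its SD over the E12.5 litters, 2.05 on the log2 scale, was larger than that of 98.2% of genes of similar level. The E12.5 litters with the fewest Lin28b reads, NDP10.2 and NPD9.2, were also the smallest libraries. In them 22.6% and 24.6% of reads were counted on genes, against 32.6% in NPD3 and 33.7% in NPD4. The part of this in the spread was not tested. The log2 fold change of Lin28b was 0.41 (SE 0.82) and -0.03 without NDP10.2. At this depth no difference between stages was detectable for Lin28b, and that of Lin28a rested on NPD28.

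**Figure D3:**
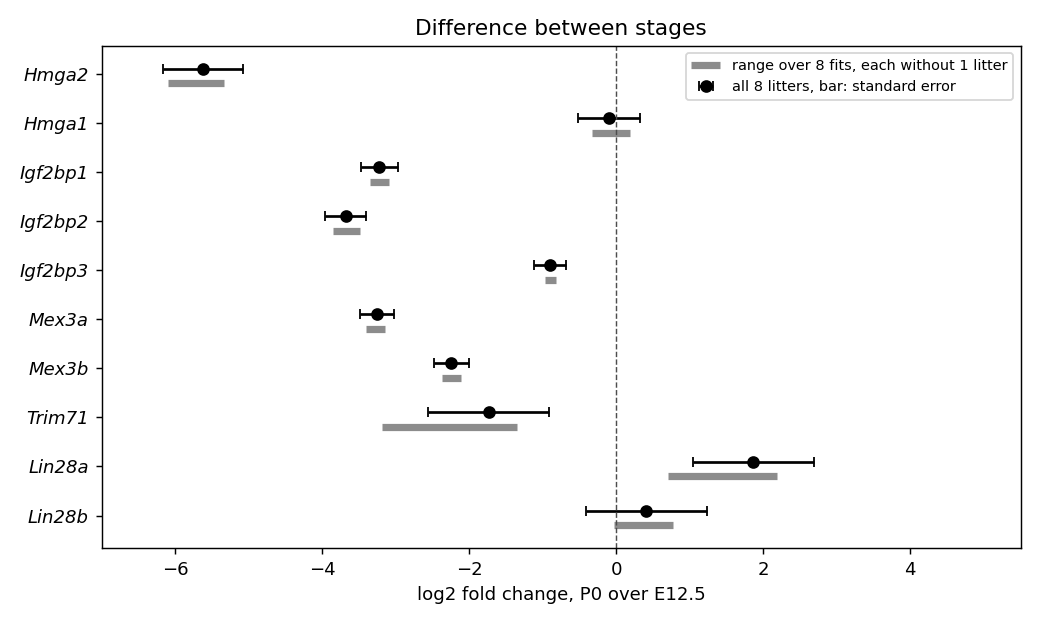
Log2 fold change of each gene, P0 over E12.5, with its standard error over all 8 litters (black) and the range over 8 fits that each leave out 1 litter (grey). The grey bars are short for the Igf2bp and Mex3 genes, long for Trim71 and Lin28a, and include 0 for Hmga1 and Lin28b.

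To compare genes with each other, counts were set per kilobase of exon on the CPM scale (RPKM). By mean RPKM the E12.5 order was Hmga2 (53.8), Mex3a (33.7), Igf2bp2 (29.2), Mex3b (24.4), Igf2bp1 (18.5), Hmga1 (16.6), Igf2bp3 (7.74), Trim71 (0.693), Lin28b (0.400) and Lin28a (0.346). Of these neighbours only Hmga2 and Mex3a, Hmga1 and Igf2bp3, and Igf2bp3 and Trim71 did not overlap across litters. The P0 order was Hmga1 (15.5), Mex3b (5.14), Igf2bp3 (4.14), Mex3a (3.52), Igf2bp2 (2.27), Igf2bp1 (1.98), Lin28a (1.26), Hmga2 (1.10), Lin28b (0.542) and Trim71 (0.207). Only Mex3a and Igf2bp2 were apart among the P0 neighbours. Hmga2 thus stood first of the 10 at E12.5 and eighth at P0, and Igf2bp3 stood last of its family at E12.5 and first at P0. The place of Igf2bp3 is uncertain, since it shares exonic bases with Malsu1 and the strand setting is not given. The place of Hmga1 is uncertain, since reads shared with its copy may be left out and its level may be too low. Whether Hmga2 stood above Hmga1 at E12.5 is uncertain for the same reason. The order depends in part on the length used. With the length of the longest transcript, Hmga2 (1.95) stood above Lin28a (1.44) and so seventh at P0, Igf2bp2 (43.6) stood above Mex3a (33.7) at E12.5, and Igf2bp3 (7.78) stood above Mex3b (5.14) at P0, while Hmga2 was still first at E12.5 (95.7).

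The makeup of each family differed between stages accordingly. Hmga2 made up 71.4% to 80.1% of the summed RPKM of Hmga1 and Hmga2 in E12.5 litters and 4.69% to 10.8% in P0 litters. Reads that Hmga1 shares with its copy may be left out, which would raise these shares of Hmga2. Igf2bp3 made up 13.04% to 15.1% of the RPKM of the 3 Igf2bp genes in E12.5 litters and 36.7% to 54.3% in P0 litters, with the lowest P0 share in NPD30. The overlap of Igf2bp3 with Malsu1 makes the shares of this family uncertain. Igf2bp2 made up 49.8% to 55.2% and then 17.0% to 34.8%. Igf2bp1, at 29.8% to 36.8% and 16.2% to 28.8%, came closest to overlap. Mex3a took 53.3% to 62.6% of the Mex3a and Mex3b pair in the E12.5 litters and 36.2% to 46.3% in the P0 litters. None of these shares overlapped between stages, and since each follows from the stage differences above it is not a separate finding.

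**Figure D4:**
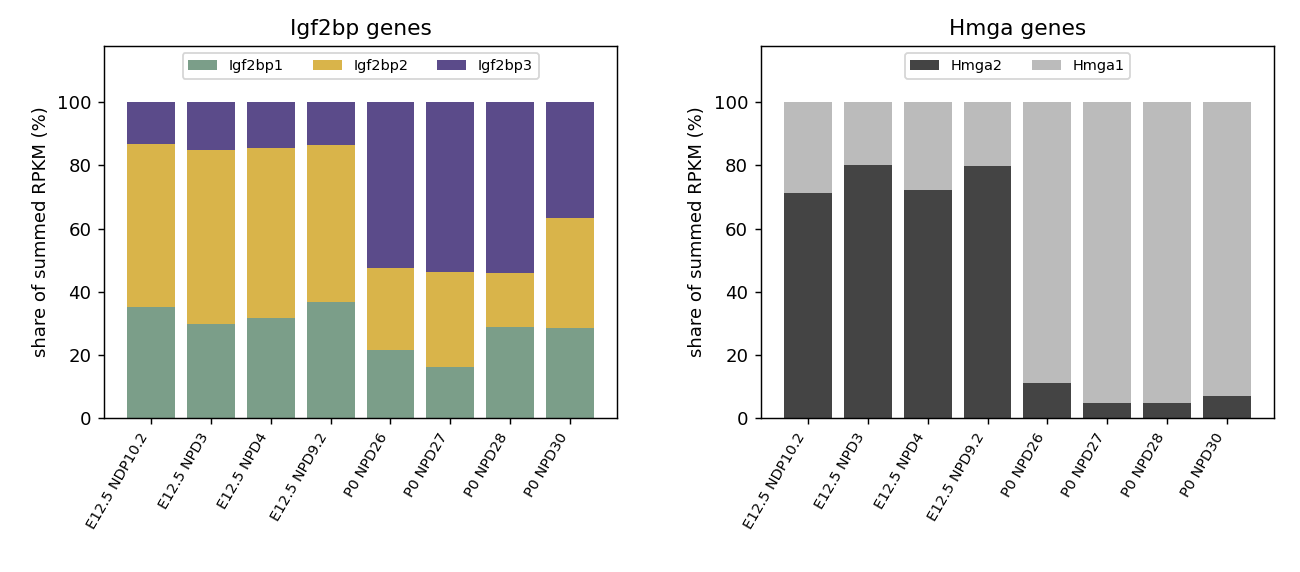
Share of each gene in the summed RPKM of the Igf2bp genes (left) and of the Hmga genes (right), in percent, for each litter. Igf2bp3 takes 13.04% to 15.1% in E12.5 litters and 36.7% to 54.3% in P0 litters, and Hmga2 takes 71.4% to 80.1% and then 4.69% to 10.8%. Reads that Hmga1 shares with its copy may be left out, and the level of Igf2bp3 is uncertain because it overlaps Malsu1.

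The P0 litters are described next one by one. In NPD30, 4 genes had their lowest P0 level (Hmga1, Hmga2, Igf2bp3 and Lin28a) and 4 had their highest (Igf2bp1, Igf2bp2, Mex3a and Mex3b), where 26.6% of all genes tested were lowest and 26.6% highest in that litter, so these counts of 10 genes are not far from the background and are not read as a pattern of the members. Relative to the mean of the other P0 litters, NPD30 held 0.191 of the level of Hmga1, 0.196 of that of Hmga2, 0.671 of that of Igf2bp3 and 0.0930 of that of Lin28a. It held 1.27 times the level of Igf2bp1, 1.38 times that of Igf2bp2, 1.30 times that of Mex3a and 1.23 times that of Mex3b. NPD30 was also the P0 litter with the lowest leukocyte marker sum, 784 CPM, and the highest notochord marker sum, 6935 CPM against 1969 to 3796 CPM in the others. Its neutrophil marker sum, 1048 CPM, was not the lowest, with 815 CPM in NPD26 and 860 CPM in NPD27. NPD28, in which Lin28a, Lin28b and Hmga1 were highest, had the highest neutrophil marker sum, 7305 CPM over 9 genes against 815 to 1048 CPM, and the highest sum of 8 B lymphocyte precursor markers, 569 CPM against 109 to 150 CPM, a list added after the data were seen. That list also summed to 362 CPM in the E12.5 litter NPD4, so its sum was not high in NPD28 alone. The share of all genes tested that were highest in NPD28 is not given here. That Lin28a, Lin28b and Hmga1 were highest there is thus not read as a pattern of the litter or of the members. Lin28b and Igf2bp3 are known from fetal blood progenitors as well as from other fetal tissue. The part of blood cells in these levels was not tested. Without NPD30 the P0 to E12.5 difference of Hmga2 was -5.33 on the log2 scale, so that difference was nearly as large without the litter.

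**Figure D5:**
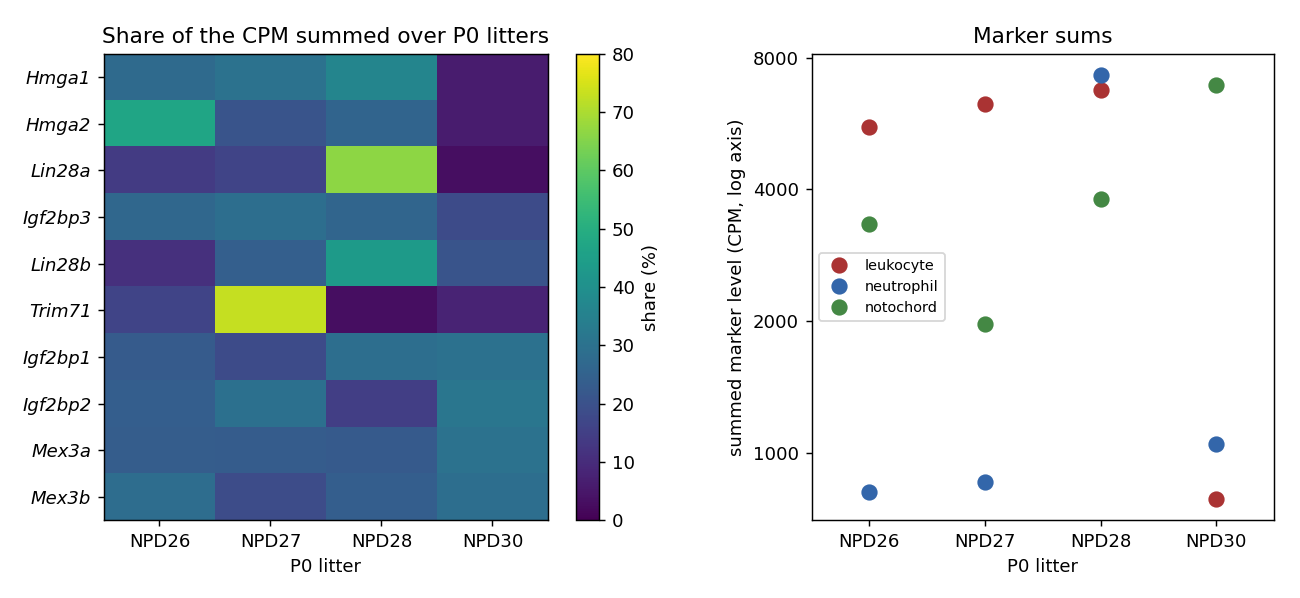
Left, share of each P0 litter in the CPM of each gene summed over the 4 P0 litters, in percent. Right, summed CPM of leukocyte, neutrophil and notochord markers in the same litters on a log axis. In NPD30 the shares of Hmga1 (6.00%), Hmga2 (6.13%) and Lin28a (3.01%) are low, where its leukocyte sum is 784 CPM and its neutrophil sum 1048 CPM. NPD28 holds 66.5% of Lin28a.

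Genes of the let-7 machinery were read from a list written from general knowledge. This list and those below were chosen with earlier results of these data known. Their counts stand beside 12.0% called lower and 27.9% called in either direction over all genes tested. Of 16 tested genes for processing let-7 and for Argonaute proteins, 1 was higher at P0, 4 were lower and 11 were not called, with a median log2 fold change of -0.33. Ago4, an Argonaute, rose: it lay between 6.39 and 9.95 CPM in the E12.5 litters and between 25.2 and 44.97 CPM in the P0 litters, and its log2 fold change was 2.06 (SE 0.28, edgeR adjusted p = 0.000628). Dicer1, the enzyme that cuts precursors into mature microRNA, fell, from a range of 123.4 to 150.8 CPM to one of 61.5 to 90.8 CPM, and its log2 fold change was -0.95 (SE 0.21, edgeR adjusted p = 0.0068). Tut4, the uridyl transferase that LIN28 recruits to let-7 precursors, fell by 1.14 on the log2 scale (SE 0.27, edgeR adjusted p = 0.00992). The 2 other genes called lower were Hnrnpa1, which binds let-7 precursors, at -1.21 (edgeR adjusted p = 0.00659), and Drosha, the nuclear processing enzyme, at -0.61 (edgeR adjusted p = 0.0372), the latter named to complete the count. Mature let-7 was not measured, since the libraries held whole transcripts and the 9 let-7 precursor genes in the files together held 0 to 7 reads per litter. Of 3 tested host genes, Mir99ahg, the host transcript of let-7c, fell by 2.73 on the log2 scale (SE 0.39, edgeR adjusted p = 0.0008), and the others were not called.

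Known let-7 targets outside the 10 genes were counted next. Of 26 tested, 10 were lower at P0, 1 was higher and 15 were not called, with a median log2 fold change of -0.56 against 0.04 over all genes. Over all genes tested, 12.0% were called lower and 27.9% in either direction. Igdcc3, a neogenin-like membrane protein gene, stood at 13.9 to 26.6 CPM at E12.5 and 0.235 to 1.73 CPM at P0 (log2 fold change -4.68, SE 0.58, edgeR adjusted p = 0.000406). Mycn, a growth-promoting transcription factor, fell by 2.51 (SE 0.44, edgeR adjusted p = 0.0022), with its highest level in NPD4 at 64.8 CPM against 25.0 to 26.7 CPM in the other E12.5 litters. Ccnd1, a G1 cyclin, fell by 2.12 (SE 0.26, edgeR adjusted p = 0.000407) and Fignl2 by 2.12 (SE 0.44, edgeR adjusted p = 0.00507). Myc was the gene that rose, from a range of 43.9 to 58.8 CPM to one of 80.99 to 136.1 CPM, with a log2 fold change of 1.15 (SE 0.24, edgeR adjusted p = 0.00447). Of the 26 genes, 18 held the 7-base seed match in their longest 3' UTR, and Mycn, Myc and Ccnd1 were among the 8 that did not.

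The same search over all genes tested that have an annotated 3' UTR, without the 10, was added after the data were seen. Among 12233 genes with 0 matches 11.02% were called lower at P0, among 1293 with 1 match 13.2%, among 160 with 2 matches 20% and among 24 with 3 or more 20.8%. The shares called higher over the same classes were 17.4%, 16.2%, 18.1% and 8.33%. The median 3' UTR length over the same classes went from 1115 to 2258, 3537.5 and 4459.5 bases, and its part in these shares was not tested. The 5 genes called lower among those with at least 3 matches were Fign, Fignl2, Zc3hav1l, Hic2 and Nr6a1, and the 2 called higher were D1Ertd622e and Ptafr, the receptor for platelet-activating factor on leukocytes, all named after their values were seen. Fignl2, Hic2 and Nr6a1 are also among the known targets called lower above, so this search and that list are not separate observations.

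RNAs bound by IGF2BP proteins did not move in a single direction. Of 8 tested, 3 were higher at P0, 2 were lower and 3 were not called, with a median log2 fold change of 0.83. Igf2, the fetal growth factor for which the family is named, stood at 3079 to 7302 CPM at E12.5 and at 207.7 to 627.6 CPM at P0, a log2 fold change of -3.51 (SE 0.46, edgeR adjusted p = 0.000522). H19, the imprinted noncoding RNA encoded beside Igf2, stood at 2185 to 4906 CPM and 94.5 to 295.6 CPM, a log2 fold change of -4.22 (SE 0.47, edgeR adjusted p = 0.000236). Those higher included Cd44, the hyaluronan receptor, at 3.79 (SE 0.37, edgeR adjusted p = 0.000123), and Myc, given above. Cd44 is also abundant on leukocytes, and it was highest, at 574.3 CPM, in NPD28 and lowest at P0, at 208.0 CPM, in NPD30.

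Other chromatin and RNA-binding relatives showed a mixed picture. Of 16 tested relatives of the 10 genes, 1 was higher, 4 were lower and 11 were not called, with a median of -0.35. Hmgn2, a nucleosome-binding protein gene, was at 4.25 to 11.6 CPM at E12.5 and 20.3 to 43.8 CPM at P0 (log2 fold change 2.14, SE 0.36, edgeR adjusted p = 0.00184). Hmgb3 fell by 1.04 (SE 0.25, edgeR adjusted p = 0.00899) and Hmgn1 by 0.88 (SE 0.23, edgeR adjusted p = 0.0148), and since Hmgn and Hmgb genes have many processed copies in the genome their counts are uncertain.

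Of 15 tested RNA-binding genes of other fetal or stem cell families, 2 were higher, 4 were lower and 9 were not called. Msi1, a translational regulator of neural progenitors, stood at 65.2 to 109.9 CPM at E12.5 and 6.36 to 14 CPM at P0 (log2 fold change -3.09, SE 0.31, edgeR adjusted p = 0.000142). Esrp1, a splicing regulator of epithelial cells, fell by 3.99 (SE 0.58, edgeR adjusted p = 0.000828). Those higher were Cpeb1, which controls poly(A) tails, at 3.49 (SE 0.72, edgeR adjusted p = 0.00524), and Qk, a splicing regulator, at 0.94 (SE 0.26, edgeR adjusted p = 0.0208).

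Genes that mark pluripotent and dividing cells were read because several of the 10 are known from both states. Of 10 pluripotency genes, 3 passed the filter. Sox2, which also marks the neural tube, was lower at P0 by 3.0 (SE 0.75, edgeR adjusted p = 0.013), Sall4 by 3.05 (SE 0.69, edgeR adjusted p = 0.00764) and 1 was not called. Of 16 proliferation genes, Tyms, a nucleotide synthesis enzyme, fell by 1.18 (SE 0.26, edgeR adjusted p = 0.00623) and the other 15 were not called. They summed to between 1178 and 1626 CPM in the E12.5 litters and between 978 and 2186 CPM in the P0 litters, so the stages overlapped.

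Across the 8 litters, the genes with the level profile most like the mean profile of the 10 were Eml4, Pde7a, Nasp, Gm38082 and Luc7l, with Pearson's r of 0.983, 0.980, 0.977, 0.975 and 0.973. These 8 litters fall into 2 stages, so that r mostly reflects the stage difference, and 24 of 10720 genes compared had an r over 0.95. Among the 10 themselves Igf2bp3 (0.977) and Hmga2 (0.972) were closest to the mean profile, and Lin28a (-0.24) and Lin28b (-0.17) were farthest from it. Each of the 10 is part of that mean, so its own r is raised by construction.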

How the data were processed

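Whole-transcript RNA of 8 litters was sequenced. Per the sources, the authors aligned reads with STAR 2.4.0j to GRCm38 and assigned them to the genes of Gencode M4 by htseq-count. The deposited values are the resulting raw counts, 1 per gene and litter. The strand setting is not given in the sources used here. Reads assigned to several genes (7.07% to 17.5%) or aligned to several places (26.3% to 33.7%) were left out of library sizes and tests.

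Counts were tested in R 4.3.3 with edgeR 4.0.16 (TMM; filterByExpr with a minimum count of 10 and a total of 15; quasi-likelihood F-test with stage as the only term; Benjamini-Hochberg over 15467 genes; called at 0.05). Log2 CPM adds a prior count of 2. RPKM uses the union of exons in Gencode M21, which also gave the positions and UTRs. DESeq2 1.42.0 and limma 3.58.1 served as alternatives, with other normalizations, filters, depths and left-out litters. The method was tested on simulated data. Every p-value measures the spread between litters.

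The 10 genes and all gene lists were chosen with earlier results of these data known. From each of 8 companion lists up to 4 called genes with the largest change and a mean log2 CPM of at least 2 are named, with Igf2, H19, Dicer1, Mex3c, Mex3d, Myc and Mycn, and the 5 genes most like the mean profile. Sall4, below that level, and the genes said to be so were named to complete a count. Identity between the proteins was not analysed here. A result for 1 gene of the companion lists that the rule would name is not reported here.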

Additional observations from a re-analysis of the deposited data

Results flagged for a closer look

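In 2 of the 20 gene and stage groups checked, 1 litter stood far from the other 3 by Dixon's criterion, and chance alone marks about 1 group in 20. Hmga1 in the P0 litter NPD30 was at 3.04 log2 CPM, against 5.19 to 5.59 in the other P0 litters, and the gap made up 0.843 of the range. Mex3a in the same litter was at 4.64 log2 CPM, against 4.23 to 4.29, with a gap of 0.869 of the range. The leukocyte marker sum of NPD30 was 784 CPM and that of the other P0 litters 5544 to 6762 CPM. Its neutrophil marker sum, 1048 CPM, lay above those of NPD26 and NPD27. The part of either sum in these values was not tested.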

How the results depend on the processing

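The count of members called was 6 and ranged from 5 to 7 over the alternatives, with Igf2bp3 lost when testing against a fold change of 2, and 7 with limma-voom, without NPD27 (both adding Trim71) and without NPD30 (adding Lin28a). Testing against a fold change of 2 also left 1928 of 4321 calls over all genes and 18 of 35 over the companion genes, and leaving out the E12.5 litters NDP10.2 and NPD9.2 together left 2581 over all genes, each by construction a stricter test or fewer samples. By Spearman's rho, 0 of the 5 genes most like the members were kept. Without single litters, Lin28a ranged from 0.70 to 2.19, Lin28b from -0.03 to 0.77, Hmga1 from -0.33 to 0.19, Trim71 from -3.19 to -1.35 and Hmga2 from -6.10 to -5.33 in log2 fold change. Lin28b was also -0.36 without NDP10.2 and NPD9.2, and limma-voom gave 1.07 for Lin28b, 1.29 for Lin28a and -2.46 for Trim71. Upper quartile normalization moved the median of all genes by -0.145 (log2) and made 52.5% of calls lower, against 42.9%, and changed no member's direction. With the longest transcript as length, 8 of 20 mean RPKM values moved by more than the spread between litters. No paired analysis was possible because the stages share no replicate origin, their litters being different animals.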
